A study of Mus musculus with 6 samples.

Results

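The genes described here form a set of 10 that are used to mark mast cells and basophils: Cpa3, Gzmb, Mcpt8, Prss34, Srgn, Hdc, Slc18a2, Hpgds, Mitf and Il1rl1. They were chosen by symbol, as the probe sets of the array annotated to one of these symbols alone. Of the 10 genes, 8 had such a probe set, 10 probe sets in all out of 45101 on the array, and array values of Prss34 and Il1rl1 were not analysed here. For genes with several probe sets the one with the highest mean over the 6 arrays stands for the gene, and the other is shown beside it. The tested cells were 3 Gata3-/- samples, grown from mouse embryonic stem cells with no intact copy of Gata3, a zinc finger transcription factor. They were set against 3 Gata3+/- samples with 1 intact copy, so the comparison holds no cells with both copies intact. Stem cells of both genotypes were differentiated on OP9 and OP9-DL1 stromal cells with IL-7 and Flt3L, and cells described as T-cell progenitors were sorted for RNA. The labels call the replicates biological but do not say whether they are separate stem cell clones or cultures, so the p-values cover no more than the scatter among arrays, which may be technical.

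Mast cells and basophils are granulocytes that store histamine and proteases in granules and release them when IgE bound to the receptor FcεRI is crosslinked. The granule proteins are packed on serglycin, the proteoglycan core encoded by Srgn. Cpa3 encodes mast cell carboxypeptidase A, Mcpt8 and Prss34 encode serine proteases of basophils and mast cells, and Gzmb encodes granzyme B, a serine protease best known from cytotoxic lymphocytes. Hdc makes histamine from histidine, Slc18a2 encodes the vesicular monoamine transporter that loads amines into vesicles, and Hpgds makes prostaglandin D from its precursor. MITF is a transcription factor that mast cells, melanocytes and osteoclasts need, and Il1rl1 encodes the receptor for IL-33. Most of these genes are not specific to mast cells: Srgn is expressed across blood cells, Hpgds also in macrophages and megakaryocytes, and Cpa3 also in early blood progenitors. GATA factors, GATA2 above all, are needed for mast cell and basophil development.

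Levels below are log2 GC-RMA intensities, and a difference is the Gata3-/- mean minus the Gata3+/- mean with its standard error (SE) and 95% interval. Testing required a log2 level of at least 4, here called the minimum, on 3 or more of the 6 arrays. Arrays correlated by 0.974 to 0.990 within a genotype and by 0.956 to 0.982 between genotypes. Gata3 itself lay at 5.87, 6.44 and 5.48 on the Gata3-/- arrays and at 5.39, 6.40 and 5.86 on the Gata3+/- arrays. Its difference of 0.05 (SE 0.34) does not check the genotypes, because the disrupted part of the gene is not given in the sources used here. Of 10 T-lineage markers named on the array, 9, Cd3e, Bcl11b and Ptcra among them, stayed under the minimum on all arrays, whereas all 8 macrophage and monocyte markers were measurable. The measurable T-lineage marker, Cd5, lay at 6.26, 6.71 and 5.59 on Gata3-/- arrays, against 4.50, 4.50 and 5.24 on Gata3+/- arrays. The genotypes did not overlap for Cd5, but its difference of 1.44 did not pass (adjusted p = 0.0764 with limma). The arrays measure a sorted population as a whole, so fewer cells of a type and less RNA per cell cannot be told apart.

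Promoter sequences are shown for Cpa3, Hdc and Gzmb, because these were the members whose levels varied most between arrays and because the comparison concerns a GATA factor. The windows hold 250 bases before and 50 bases after the transcription start, 5′ to 3′ on the gene's strand, from RefSeq on build GRCm38.p6. Those of Cpa3 (chr3:20242132-20242431), Hdc (chr2:126618629-126618928) and Gzmb (chr14:56262285-56262584) are all on the minus strand. Capitals mark words that GATA factors bind, which were AGATAA or with another end AGATAG, and with another first letter TGATAA or finally TGATAG, searched on both strands.
Cpa3: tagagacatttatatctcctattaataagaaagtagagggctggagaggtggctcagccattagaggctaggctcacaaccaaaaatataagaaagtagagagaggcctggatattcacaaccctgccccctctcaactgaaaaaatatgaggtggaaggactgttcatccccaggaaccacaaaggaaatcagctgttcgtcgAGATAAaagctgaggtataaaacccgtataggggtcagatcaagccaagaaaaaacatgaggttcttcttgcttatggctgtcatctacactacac
Hdc: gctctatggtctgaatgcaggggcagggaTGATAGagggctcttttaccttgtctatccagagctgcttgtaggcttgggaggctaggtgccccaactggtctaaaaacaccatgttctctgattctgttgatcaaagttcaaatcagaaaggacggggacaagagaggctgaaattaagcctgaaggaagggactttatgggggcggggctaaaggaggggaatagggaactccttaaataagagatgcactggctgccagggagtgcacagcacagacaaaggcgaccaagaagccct
Gzmb: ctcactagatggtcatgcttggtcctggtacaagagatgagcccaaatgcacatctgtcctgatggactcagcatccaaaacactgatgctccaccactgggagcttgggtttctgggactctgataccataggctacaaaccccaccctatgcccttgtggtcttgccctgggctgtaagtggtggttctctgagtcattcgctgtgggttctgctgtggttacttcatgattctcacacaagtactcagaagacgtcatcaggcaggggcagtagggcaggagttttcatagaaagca
The Cpa3 window held AGATAA beginning 46 bases before the start, the Hdc window held TGATAG beginning 221 bases before it, and the Gzmb window held none of the 4 words. All 10 members had at least 1 promoter window, 14 in all, of which 8 held such a word, against 29.8% of the 32851 windows in the RefSeq table. The E-box CATGTG, a word that MITF binds, was found on either strand in the windows of Hpgds and Prss34, against 14.2% of all windows. These matches describe letters and are no evidence of binding.

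Between the genotypes no member passed the threshold of an adjusted p of 0.05. Of the 8 members with a probe set, 7 were tested and 0 were called with limma, against 5.27% of the 10302 genes tested (2.86% higher and 2.41% lower in Gata3-/- cells). At an unadjusted p under 0.05 there were 3 (Gzmb, Srgn and Hpgds), against 25.8% of all genes. The genotypes did not overlap for these 3 genes, as for 33.6% of all genes, with all Gata3-/- arrays above for Gzmb and Srgn (16.9% of all genes lay so) and below for Hpgds (16.7%). Calls in this comparison rest on all 6 arrays: 543 genes were called with them, and 0 to 4 when any 1 array was left out. The median difference of the 7 tested members was 0.38, with 5 positive and 2 negative. Over all genes tested the median was -0.02, with 46.7% positive.

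**Figure D1:**
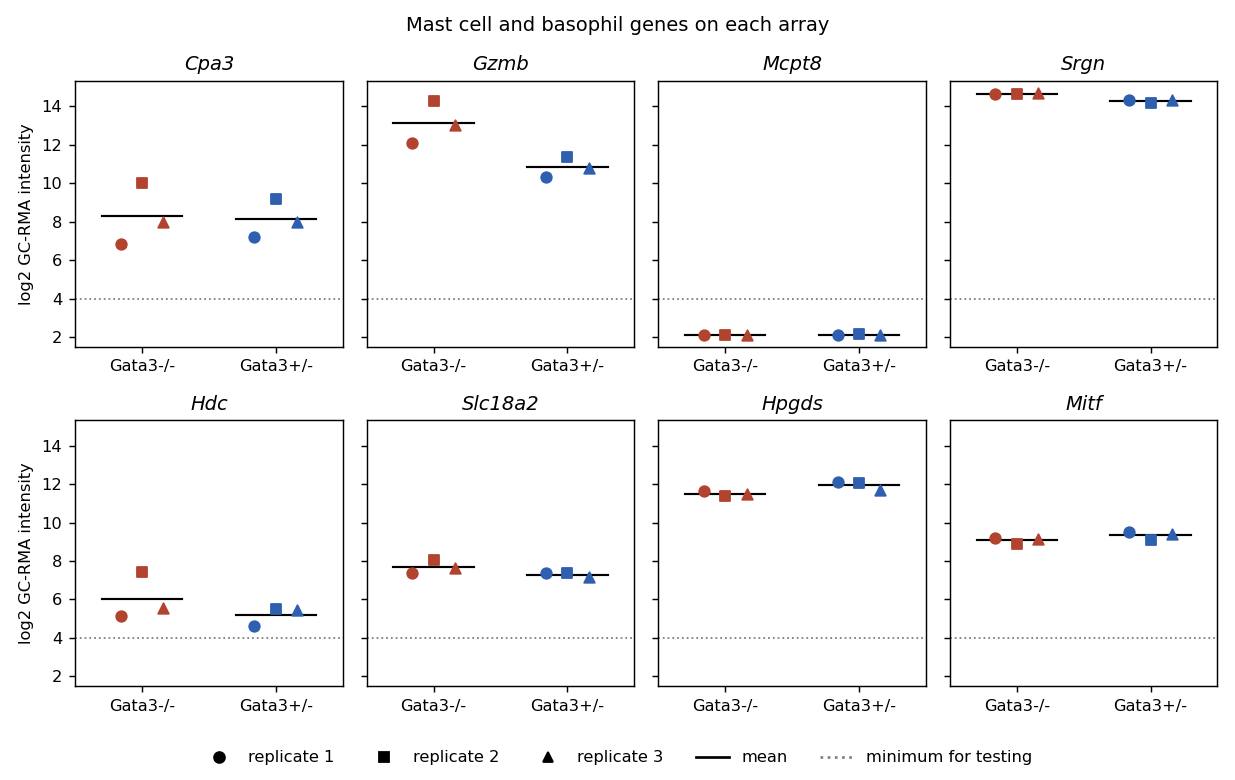
Log2 GC-RMA intensity of the 8 members with a probe set, for each array of Gata3-/- and Gata3+/- cells; marker shapes give the replicate number, black lines the means and the dotted line the minimum of 4. Gzmb separated by genotype, Cpa3 was highest on replicate 2 of both genotypes, and Mcpt8 lay under the minimum throughout.

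Among the proteases, Gzmb showed the largest difference of the set. Its intensity was 4424, 20211 and 8502 on the Gata3-/- arrays, against 1304, 2660 and 1778 on the Gata3+/- arrays. Every Gata3-/- array lay above every Gata3+/- array, and replicate 2 was the highest of each genotype. The log2 levels averaged 13.16 ± 1.10 in Gata3-/- and 10.84 ± 0.52 in Gata3+/- cells (SD, n = 3 each). The difference of 2.32 (SE 0.59, interval 0.86 to 3.77) corresponds to 4.98-fold, and 73 of the tested genes had a larger one. With limma its adjusted p = 0.0856, so it did not pass. With array weights it passed, at an adjusted p of 0.0415, but these weights also raised the calls over all genes from 543 to 1224. Gzmb did not pass with limma without a filter (adjusted p = 0.247) or with any 1 array left out (0.105 to 0.222). Taken by replicate number, the differences were 1.76, 2.93 and 2.26. Other granzymes were not measurable with it: of 10 granzyme and perforin genes besides Gzmb, 9 stayed under the minimum on all 6 arrays, Prf1, the pore-forming perforin, among them. The exception was Gzma, a tryptase-type granzyme, at 8.86, 11.72 and 9.63 on Gata3-/- arrays, against 9.97, 11.48 and 10.72 on Gata3+/- arrays. Its genotypes overlapped (difference -0.65, SE 0.80, adjusted p = 0.682).

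Gzmb lies on chromosome 14 within a stretch whose genes differed in the same direction. All of the 24 nearest tested genes, 12 on each side in RefSeq gene order, had a positive difference, against 46.7% of all genes. Their median was 0.45, and 7 of them passed the threshold in the Gata3-/- direction, against 2.86% of all genes. Among these neighbours, Gjb2, a gap junction gene, had the largest difference at 3.17, and Ripk3, a kinase of necroptosis, had 0.61 (adjusted p = 0.0562). The difference of Gzmb was larger than that of 23 of these neighbours. The part of this neighbourhood in the Gzmb difference was not tested. Elsewhere the neighbourhoods were closer to zero, with medians of -0.04 around Cpa3, -0.11 around Srgn, -0.07 around Hdc and -0.02 around Slc18a2. On chromosome 6 the medians were -0.08 around Hpgds and 0.14 around Mitf.

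**Figure D2:**
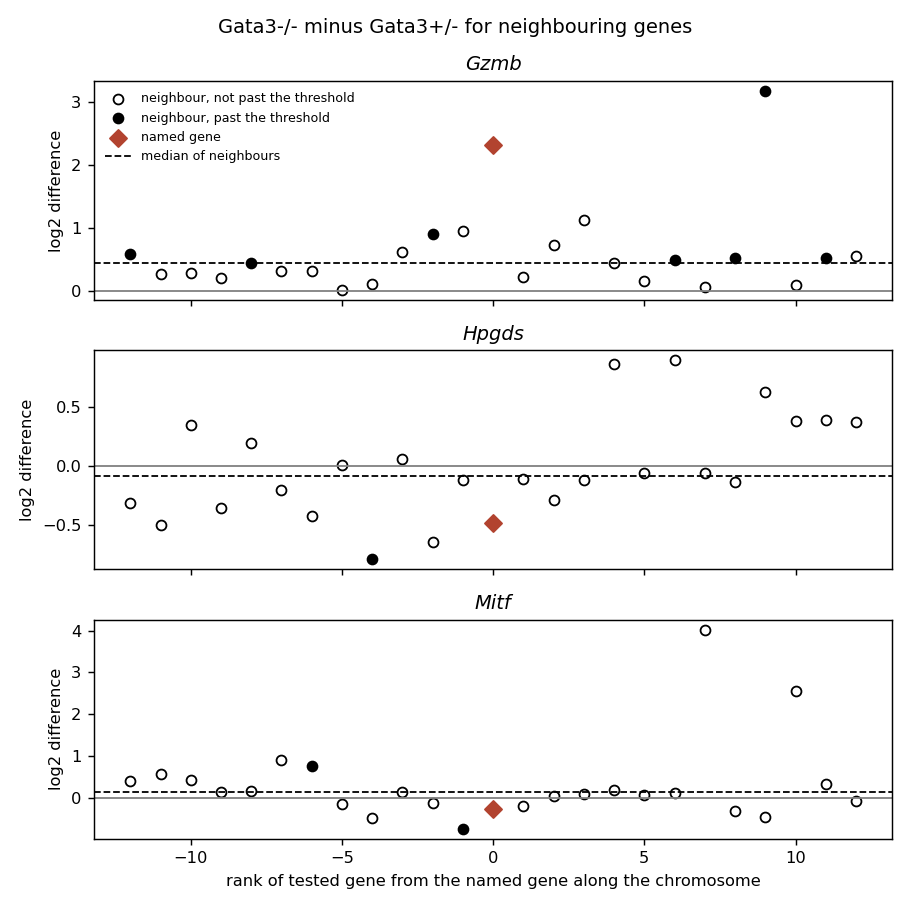
Difference between genotypes (log2, Gata3-/- minus Gata3+/-) of the 12 tested genes on each side of Gzmb, Hpgds and Mitf, by rank along the chromosome; filled points passed the threshold, red diamonds are the named genes and dashed lines the medians. All 24 neighbours of Gzmb lie above 0, while those of Hpgds and Mitf lie on both sides.

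The carboxypeptidase gene Cpa3 varied between replicates and not by genotype. Its intensity was 113, 1015 and 257 on the Gata3-/- arrays, against 147, 589 and 257 on the Gata3+/- arrays. The order of the replicates was the same in both genotypes, with number 2 highest and number 1 lowest. Log2 means were 8.27 ± 1.60 in Gata3-/- and 8.13 ± 1.01 in Gata3+/- cells (SD, n = 3 each), and the difference was 0.14 (SE 0.91, adjusted p = 0.949). The interval ran from -2.12 to 2.40. Without both arrays numbered 2 the difference was -0.19, and without Gata3-/- replicate 2 alone it was -0.72, neither called. Only 107 of the 10302 tested genes (1.04%) had a larger spread within genotypes.

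Replicate 2 of Cpa3 exceeded the mean of replicates 1 and 3 by 2.57 in Gata3-/- cells and by 1.60 in Gata3+/- cells. Over all tested genes the median of the same quantity was 0.02 in Gata3-/- and -0.02 in Gata3+/- cells. An excess of 1 or more in both genotypes was seen for 0.233% of genes, and no tested gene exceeded Cpa3 in both. The pattern was known when the members were chosen, so these values are a description. Hdc followed with 2.08 in Gata3-/- and 0.48 in Gata3+/- cells, and Gzmb with 1.72 in Gata3-/- and 0.80 in Gata3+/- cells. Of the 7 tested members, 4 (Cpa3, Gzmb, Hdc and Slc18a2) were highest on replicate 2 in both genotypes, against 21.9% of all genes. In Gata3+/- cells the margin was small for Hdc, at 5.52 on replicate 2 against 5.47 on replicate 3. It was smaller still for Slc18a2, at 7.36 on replicate 2 against 7.35 on replicate 1. Srgn and Mitf were lowest on replicate 2 in both genotypes, as were 22.5% of all genes.

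**Figure D3:**
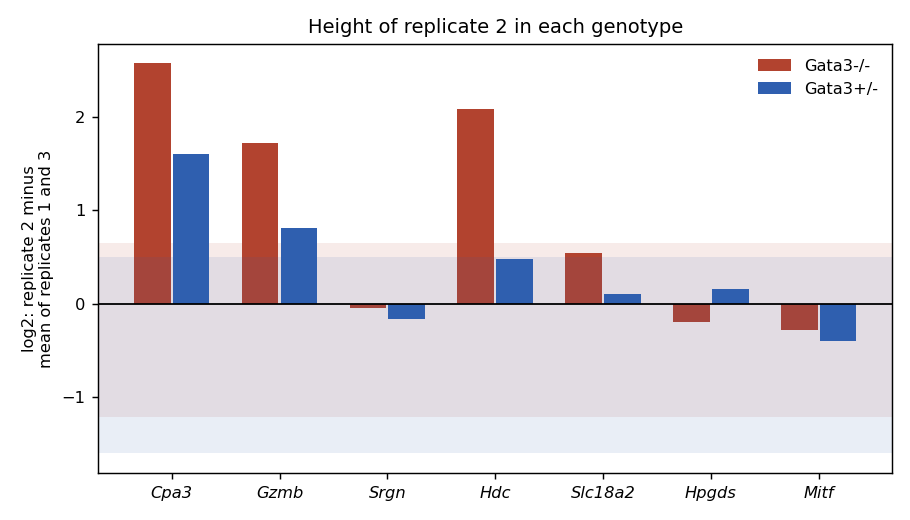
Log2 level on replicate 2 minus the mean of replicates 1 and 3, for each tested member in Gata3-/- (red) and Gata3+/- (blue) cells; shaded bands hold the central 95% of all tested genes in the genotype of that colour. Cpa3 and Gzmb exceed the bands in both genotypes and Hdc exceeds its band in Gata3-/- cells.

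The 5 genes whose profile over the 6 arrays was nearest to Cpa3 were Trbv1, Gzma, Trgv4, Angpt1 and Emid1. Nearness was the root mean square difference after each gene was centred on its own mean, and it ran from 0.35 for Trbv1 to 0.54 for Emid1. Trbv1, a variable segment of the T-cell receptor beta locus, lay at 8.99, 11.78 and 9.78 on Gata3-/- arrays, against 9.10, 11.01 and 9.03 on Gata3+/- arrays. Trgv4, a variable segment of the gamma locus, lay at 7.38, 9.43 and 7.68 on Gata3-/- arrays, against 7.89, 9.62 and 8.44 on Gata3+/- arrays. In both, replicate 2 was the highest array of each genotype, as in Cpa3. They were picked for nearness to the Cpa3 profile, so this shared peak is no separate result. The probe set of Trbv1 has the suffix by which Affymetrix marks probes that can bind other transcripts. Among the members Hdc was nearest to Cpa3, at 0.59, with 9 tested genes nearer.

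Levels of other cells' markers are given beside these. The 6 measured of 8 OP9 stromal markers had a mean log2 level of 8.71, 7.49 and 9.63 on Gata3-/- arrays, against 9.71, 8.20 and 9.93 on Gata3+/- arrays, lowest on replicate 2 of both. Lum and Dcn, of the same list, stayed under the minimum. The 4 measured of 8 neutrophil and granulocyte precursor markers averaged 6.27, 8.41 and 7.57 on Gata3-/- arrays, against 6.02, 6.91 and 7.80 on Gata3+/- arrays. That list was highest on replicate 2 in Gata3-/- cells and on replicate 3 in Gata3+/- cells. Within it Mpo and Prtn3, granule enzymes of granulocyte precursors, were highest on replicate 2 of both genotypes, Mpo at 10.15 in Gata3-/- and 10.25 in Gata3+/- cells. S100a8 and S100a9, calcium-binding proteins of neutrophils and monocytes, were highest on replicate 2 in Gata3-/- cells (9.13 for S100a8 and 9.14 for S100a9) but on replicate 3 in Gata3+/- cells (7.68 for S100a8 and 7.53 for S100a9). Elane stayed under the minimum. Klrd1, the only measurable gene of 5 NK markers named on the array, was also highest there, at 8.12 in Gata3-/- and 8.10 in Gata3+/- cells. The part of these cells in the levels of Cpa3 and Hdc was not tested.

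Of 5 plasmacytoid dendritic cell markers 4 were measured, all with negative differences, and 2 of them, Siglech and Irf8, fell, against 2.41% of all genes. Siglech, a surface receptor of these cells, lay at 3.76, 3.81 and 3.04 on Gata3-/- arrays, against 7.59, 9.02 and 7.50 on Gata3+/- arrays (adjusted p = 0.0281 with limma). All its Gata3-/- values lay under the minimum of 4, so that group gives only a bound. Siglech met the filter through the Gata3+/- arrays alone, which favours a fall, so neither its test nor its place in that count is support. The measured markers of that list had a mean log2 level of 9.54 to 9.83 on Gata3-/- arrays, against 10.96 to 11.38 on Gata3+/- arrays. Most of that gap came from Siglech, with a difference of -4.50. Irf8 had -0.67 (adjusted p = 0.0383 with limma), while Bst2, with -0.21, and Tcf4, with -0.16, did not pass. Of 4 eosinophil markers 2 were measured, with differences of opposite sign. Prg2, the major basic protein of eosinophil granules, lay at 9.74, 9.35 and 10.26 on Gata3-/- arrays, against 5.57, 6.74 and 8.73 on Gata3+/- arrays, and did not pass (difference 2.77, adjusted p = 0.112). Siglecf, a surface lectin of eosinophils, fell by 0.57 (adjusted p = 0.0383). Epx, of the same list, met the minimum on 2 Gata3-/- arrays only and was not tested. It lay at 4.08, 2.93 and 5.32 on Gata3-/- arrays, against 2.17, 2.18 and 3.49 on Gata3+/- arrays. Il5ra stayed under the minimum on all arrays. The part of these cells in the Gzmb and Srgn differences was not tested.

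Mcpt8, the basophil protease, was not measurable, with levels between 2.11 and 2.13 on all 6 arrays. Srgn, the most stable member, lay at 14.67, 14.63 and 14.69 on Gata3-/- arrays, against 14.34, 14.16 and 14.32 on Gata3+/- arrays. All Gata3-/- arrays lay above all Gata3+/- arrays by a small margin. The difference was 0.39 (SE 0.08, interval 0.19 to 0.58), or 1.31-fold, and missed the threshold with limma (adjusted p = 0.0574). A variance trend with robust estimation gave an adjusted p of 0.0242, and array weights gave 0.0363. Srgn did not pass with limma without a filter (adjusted p = 0.0761) or with any 1 array left out (0.0998 to 0.150).

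**Figure D4:**
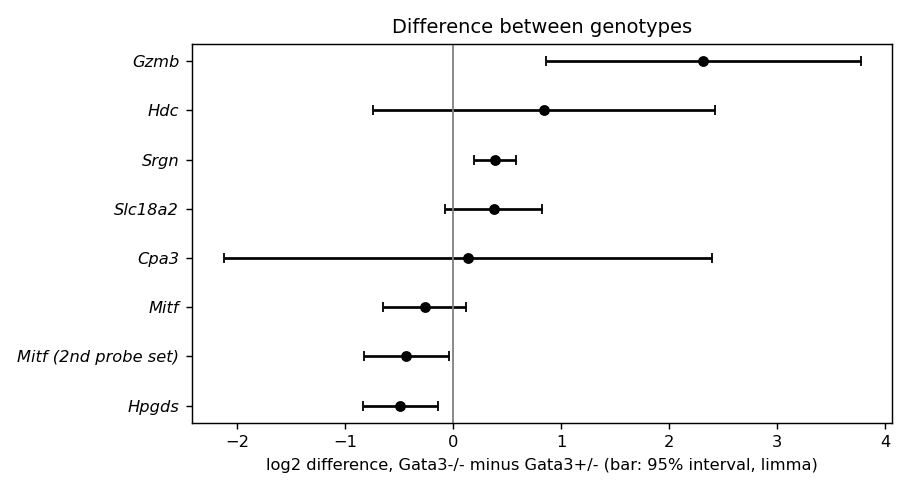
Log2 difference between genotypes (Gata3-/- minus Gata3+/-, point) with its 95% interval from limma (bar), for the 7 tested members and the other tested probe set of Mitf. The whole intervals of Gzmb and Srgn lie right of 0, and those of Hpgds and the other Mitf probe set lie left of it. Cpa3 and Hdc have the widest intervals, and the filter favoured a fall of the other Mitf probe set.

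Genes of mediator synthesis and storage had differences of both signs, and none passed. Hdc, histidine decarboxylase, lay at 5.16, 7.43 and 5.54 on Gata3-/- arrays, against 4.62, 5.52 and 5.47 on Gata3+/- arrays. A single array, Gata3-/- replicate 2, stood apart and the other 5 overlapped. The difference was 0.84 (SE 0.64, adjusted p = 0.493), and 0.15 without that array. The other Hdc probe set showed the same array alone, at 3.57, 5.93 and 3.62 on Gata3-/- arrays, against 3.55, 3.76 and 3.30 on Gata3+/- arrays. It reached the minimum on Gata3-/- replicate 2 and nowhere else, so it was not tested. Both Hdc probe sets carry the Affymetrix suffix for probes that several transcripts share.

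Slc18a2, the amine transporter, lay at 7.36, 8.03 and 7.63 on Gata3-/- arrays, against 7.35, 7.36 and 7.17 on Gata3+/- arrays. Replicate 1 of Gata3-/- fell among the Gata3+/- arrays, and the difference of 0.38 (SE 0.18) had an adjusted p of 0.283. Hpgds, the prostaglandin D synthase of blood cells, had a negative difference. It lay at 11.64, 11.36 and 11.47 on Gata3-/- arrays, against 12.13, 12.07 and 11.72 on Gata3+/- arrays. The groups did not overlap, but the difference of -0.49 (SE 0.14, interval -0.83 to -0.14) did not pass (adjusted p = 0.111). Array weights gave -0.56 with an adjusted p of 0.0428. With limma the adjusted p was 0.260 without a filter and 0.0790 to 0.275 with any 1 array left out. Hpgds is also made by megakaryocytes and macrophages, whose markers were set beside it. The 4 measured of 6 megakaryocyte markers had a median difference of -0.19, and their mean log2 level ran from 10.50 to 11.44 on Gata3-/- arrays, against 11.01 to 11.40 on Gata3+/- arrays. The 8 macrophage and monocyte markers had a median difference of -0.17, with 7 negative, while 46.7% of all genes were positive. Their mean log2 level ran from 12.86 to 13.12 on Gata3-/- arrays, against 13.15 to 13.41 on Gata3+/- arrays. Mpeg1 alone passed, with -0.66 (adjusted p = 0.0383 with limma), and 2.41% of all genes fell. Unadjusted p was under 0.05 with limma for 5 of the 8, against 25.8% of all genes. Cd68 was the positive marker, with 0.53 (adjusted p = 0.0541 with limma). The part of megakaryocytes and macrophages in the Hpgds difference was not tested.

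Mitf lay at 9.21, 8.89 and 9.14 on Gata3-/- arrays, against 9.52, 9.07 and 9.43 on Gata3+/- arrays. The genotypes overlapped, since replicate 2 of Gata3+/- was lower than replicates 1 and 3 of Gata3-/-. The difference was -0.26 (SE 0.15, adjusted p = 0.369). Its other probe set, near the minimum at 3.92, 3.85 and 4.18 on Gata3-/- arrays against 4.37, 4.19 and 4.68 on Gata3+/- arrays, had a difference of -0.43 (SE 0.16, adjusted p = 0.180). That probe set reached the minimum on 1 Gata3-/- array against 3 Gata3+/- arrays. The filter thus favoured a fall, so its difference is no support. Of 12 genes of the MITF family and its targets, 4 were measurable and 0 were called with limma, also 0 at an unadjusted p under 0.05. They were the related factors Tfeb, Tfec and Tfe3, with differences of 0.01, -0.05 and -0.25, and Acp5, an osteoclast and macrophage phosphatase, with 0.18. The melanocyte targets Tyr, Tyrp1, Dct, Pmel and Mlana and the osteoclast protease gene Ctsk were all under the minimum.

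Of 10 other mast cell proteases 8 were named on the array and none met the minimum on 3 arrays, so none was tested. Mcpt1, Mcpt2 and Mcpt4, chymase-type mast cell proteases, reached it on Gata3-/- replicate 2 alone. Mcpt2 lay at 2.16, 4.91 and 2.18 on Gata3-/- arrays, against 2.20, 2.20 and 2.17 on Gata3+/- arrays. Mcpt1 reached 4.60 and Mcpt4 reached 4.26 on that array, while every other array lay at or below 2.51 for Mcpt1 and 2.36 for Mcpt4. Cma1, Tpsab1, Tpsb2, Tpsg1 and Ctsg stayed under the minimum throughout. The chains of the IgE receptor that are particular to it, Fcer1a (2.17 to 2.19 on all arrays) and Ms4a2 (highest at 3.39 on Gata3-/- replicate 2), did too.

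Il4, a cytokine of mast cells, basophils and Th2 cells, followed the same single array, at 3.45, 5.24 and 3.78 on Gata3-/- arrays, against 3.45, 3.46 and 3.44 on Gata3+/- arrays. Outside the mast cell lists, Nkg7, an NK and cytotoxic granule gene, did so too, at 5.96 on Gata3-/- replicate 2 and at most 3.87 elsewhere. Over the whole array 106 probe sets reached the minimum on Gata3-/- replicate 2 alone. The corresponding number for the other 5 arrays ran from 56 to 153, with 3 arrays below that number and 2 above it. These low values come from 1 array and have no replicate check.

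**Figure D5:**
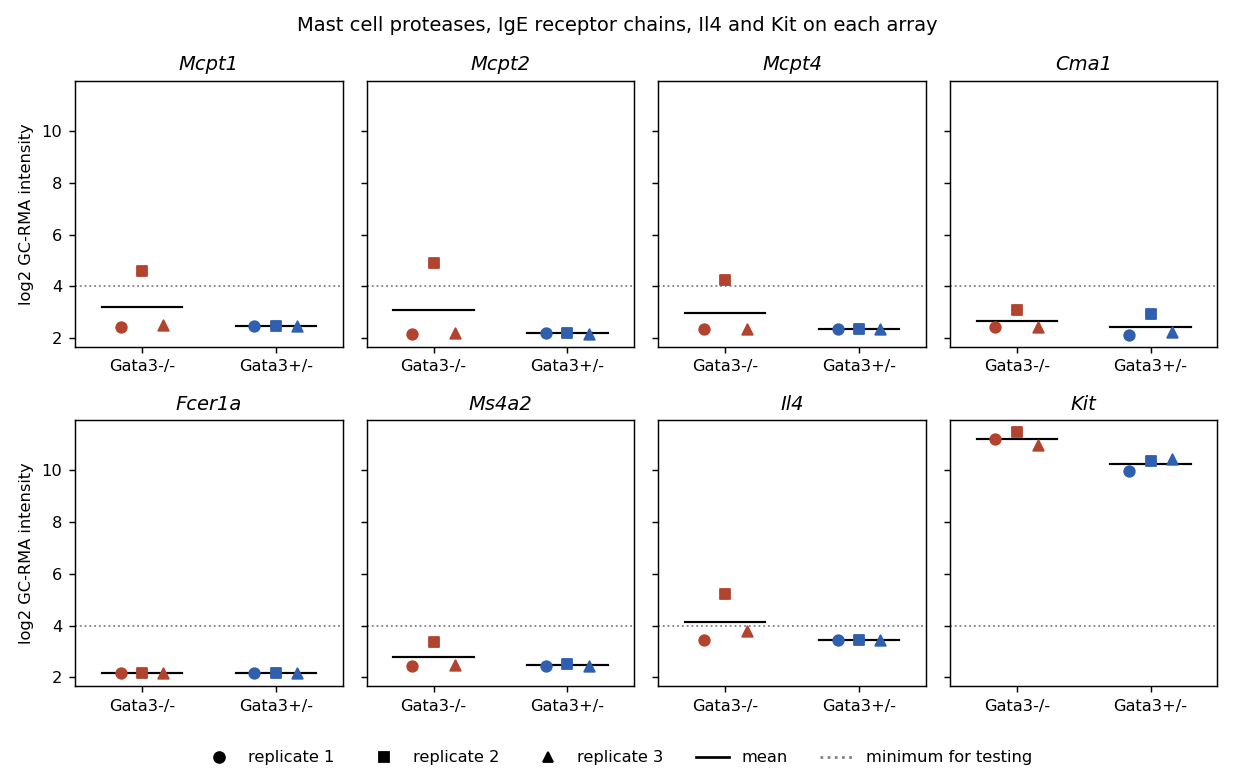
Log2 GC-RMA intensity on each array for the mast cell proteases Mcpt1, Mcpt2, Mcpt4 and Cma1, the IgE receptor chains Fcer1a and Ms4a2, Il4 and Kit; shapes give the replicate number, black lines the means and the dotted line the minimum of 4. Mcpt1, Mcpt2, Mcpt4 and Il4 reach the minimum on Gata3-/- replicate 2 alone, while Kit is measurable on all arrays.

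Receptors and signalling genes around the set were mostly measurable and mostly did not differ by the test. Over the 9 related lists 64 genes were tested and 5 passed, 3 higher and 2 lower in Gata3-/- cells, which is 7.81% against 5.27% of all genes. With any 1 array left out, 0 of the 64 passed. Among 10 measured receptor genes only Kit, the stem cell factor receptor that mast cells depend on, passed. Kit lay at 11.22, 11.47 and 10.98 on Gata3-/- arrays, against 9.98, 10.38 and 10.43 on Gata3+/- arrays (difference 0.96, adjusted p = 0.0477), and its other probe set, with 0.87, did not pass. The shared Fc receptor chain Fcer1g had -0.12, the IL-3 receptor chain Il3ra -0.08, the common beta chain Csf2rb 0.12 and Il1rap, the coreceptor for IL-33, 0.23. None of 11 measured genes of IgE receptor signalling passed with limma, and 3 had an unadjusted p under 0.05, as had 25.8% of all genes. The largest of their differences was -0.85 for the adaptor Lat (adjusted p = 0.157), and Lat2, the related adaptor of mast cells and B cells, had -0.57 (adjusted p = 0.0728). The brightest 4 of these 11 genes were Plcg2, Lcp2, Inpp5d and Syk, with differences of -0.03, 0.11, -0.09 and 0.19.

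Among 14 measured transcription factors of the lineage Stat5a rose and 13 did not pass. Stat5a lay at 9.87, 9.76 and 9.87 on Gata3-/- arrays, against 8.82, 8.54 and 9.03 on Gata3+/- arrays (difference 1.04, adjusted p = 0.0334), and its other probe set passed too, with 0.96 (adjusted p = 0.0281). Gata2, the factor mast cells and basophils require, lay at 8.06, 9.21 and 8.31 on Gata3-/- arrays, against 7.97, 8.09 and 8.02 on Gata3+/- arrays. It was highest on Gata3-/- replicate 2, and its difference of 0.50 did not pass (adjusted p = 0.384). Gata1, with -0.07, and Zfpm1, a GATA cofactor, with -0.21, did not pass either. Cebpa, a factor of basophil and myeloid development, had -1.18 (adjusted p = 0.0829), with all Gata3-/- arrays below all Gata3+/- arrays (16.7% of all genes lay so). Bhlhe40 had the largest difference of the list, 2.57, with all Gata3-/- arrays above all Gata3+/- arrays (16.9% of all genes lay so). It did not pass (adjusted p = 0.109). Bhlhe40 lay at 11.28, 10.36 and 10.88 on Gata3-/- arrays, against 9.01, 6.62 and 9.20 on Gata3+/- arrays, lowest on replicate 2 of both.

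Of 13 measured genes of granule storage and release, Vamp8, a membrane fusion protein of mast cell granules, rose and Rab27a, a GTPase that docks granules, fell. Vamp8 lay at 12.77, 12.78 and 12.80 on Gata3-/- arrays, against 12.23, 12.02 and 12.30 on Gata3+/- arrays (difference 0.60, adjusted p = 0.0370). Rab27a lay at 11.26, 11.11 and 11.05 on Gata3-/- arrays, against 11.58, 11.68 and 11.55 on Gata3+/- arrays (difference -0.46, adjusted p = 0.0485). Neither of its 2 other tested probe sets, at -0.65 and -0.60, passed, and Rab27a did not pass when probe sets were averaged. Of 6 measured lipid mediator genes Pla2g4a, the phospholipase that releases arachidonic acid, fell by 0.54 (adjusted p = 0.0487), a call lost under quantile normalization and under median centring. Alox5 and Alox5ap, the enzyme and the activating protein of leukotriene synthesis, had -0.51 and 0.17, and Ptgs2, an inducible prostaglandin synthase, had 1.41 (adjusted p = 0.281). None of 5 measured genes of the IL-33 pathway and type 2 cytokines passed with limma, with 1 at an unadjusted p under 0.05, against 25.8% of all genes. The adaptor Myd88 had -0.37, Irak1 -0.13, the TSLP receptor chain Crlf2 0.05 and Traf6 0.10. Il33, Il5, Il13 and Tslp were under the minimum on all arrays.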

How the data were processed

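The values analysed were linear intensities deposited by the authors for 45101 probe sets on 6 Affymetrix arrays, made with GC-RMA per the labels and with GCOS named in the submitters' processing notes. GC-RMA normalizes between arrays, and many dim probe sets lay near a constant floor that differed between probe sets. No software version is given in the sources used here. The log2 of each intensity was taken without further scaling, and 64 control probe sets were left out. Probe sets reaching a log2 value of 4 on at least 3 arrays, 20102 in all, entered a two-sided fit (lmFit, then eBayes) with limma version 3.58.1 under R version 4.3.3, and p-values were adjusted after Benjamini and Hochberg over all of them. Precision is limited by the 6 arrays.

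Symbols were those of the platform annotation (34958 probe sets with 1 symbol, 932 with several, 9211 not listed). A gene was represented by its tested probe set of highest mean, and 10278 genes had a place in RefSeq gene order (GRCm38.p6). All members, Gata3, the 5 profiles nearest to Cpa3 and, in each related list, called genes or the brightest 4 were to be named. Of the granzyme and perforin list, Gzma and Prf1 alone were named. Others were picked after their values were seen, among them Mcpt1, Mcpt2, Mcpt4, Ms4a2, Il4, Nkg7, Cd5, Cebpa, Bhlhe40, Lat, Lat2, Ptgs2, Gjb2, Ripk3, Siglech, Irf8, Prg2, Epx, Siglecf, Mpeg1 and Cd68. The members and lists were chosen with earlier results of these data known. Alternatives were other filters, scalings and variance models, weighting of arrays, a block for the replicate number, averaged probe sets, and leaving out arrays. The fit was tested on simulated data.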

Additional observations from a re-analysis of the deposited data

How the results depend on the processing

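Of the 7 tested members 0 passed with limma, where 3 had an unadjusted p under 0.05. The count became 1 under the stricter filter, the variance trend with robust estimation and averaged probe sets (Srgn in each), 1 with the replicate block (Gzmb) and 3 with array weights (Gzmb, Srgn and Hpgds). Leaving out any 1 array gave 0 to 0 members, and 0 to 0 of the related genes. The related lists' 5 calls became 0 without a filter, 8 with array weights, 1 with the replicate block (Stat5a) and 0 without both arrays numbered 2. Over all genes 543 calls became 98 without a filter, 824 with the variance trend and robust estimation, 1224 with array weights, 298 with the replicate block, 3 without both arrays numbered 2, and 0 to 4 without any 1 array. The fits with fewer arrays hold fewer samples, and otherwise the cause was not tested. Cpa3's difference of 0.14, never called, ran from -0.72 to 0.86 when 1 array was left out (negative without Gata3-/- replicate 2 and without Gata3+/- replicate 1) and was -0.19 without both arrays numbered 2. The other 6 members kept their sign under every alternative that tested them.

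Replicate numbers are shared by the genotypes, but the correlation of same-numbered arrays, after each genotype's mean was taken out, was 0.005 for number 1, 0.695 for number 2 and 0.429 for number 3, so no pairing is assumed. With the replicate block Gzmb had an adjusted p of 0.0431 (SE 0.25) and Srgn of 0.0852. Cpa3 had one of 0.772, with an SE of 0.25 against 0.91 without the block.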
